A study of Mus musculus with 14 samples.

Results

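The first step of a chemical conversion of mouse embryonic stem cells (ESC) towards extraembryonic endoderm was read from 8 of the 14 RNA-seq libraries of the study, namely the ESC library and the library at passage 1 (cXENp1) of each of 4 lines. The rule took the 4 libraries titled cXENp1 against the 4 titled ESC and paired them by line, and no measured value entered that choice. The 4 cXENp3 libraries and the 2 established XEN lines were left out of the comparison, and the XEN lines serve below as a reference for endoderm genes.

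All lines carry the 129S1/SVImJ strain background. The line 3WT is wild type, 3.34Null and 2.6Null are Zfp281KO lines, and 3.34Null-Rescue is the knockout with Zfp281 put back; how it was put back is not given in the sources used here. Zfp281 is a zinc finger transcription factor. The cell line entry reads 3.34-/- for both 3.34Null and 3.34Null-Rescue, so the 4 pairs are not 4 unrelated lines, and it reads 2.26-/- for the line titled 2.6Null. ESC grew feeder-free on gelatin in DMEM with 15% serum and 1000 units/mL of leukemia inhibitory factor (LIF), the cytokine that keeps mouse ESC undifferentiated. For cXENp1 the cells were replated on gelatin in XEN medium (based on advanced RPMI, with 15% serum, described as conditioned by mouse fibroblasts for the XEN lines, with no LIF listed), and 24 h later received 0.01 µM all-trans retinoic acid together with 10 ng/mL of activin A for 48 h. No library had the new medium without the 2 agents, so the effects of retinoic acid, activin, LIF withdrawal and the medium cannot be told apart. There was 1 library per line and stage, and the labels do not describe repeat cultures, so the p-values below measure the spread of the change between lines.

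Retinoic acid, made from vitamin A, enters the nucleus with the binding protein CRABP2 and acts through retinoic acid receptors (RAR) that sit with RXR partners on direct repeats of a short half-site. Among its best known direct targets are the genes of its own breakdown (Cyp26a1), of one of its receptors (Rarb) and of the 3' ends of the Hox clusters. Activin and its relative Nodal signal through SMAD2 and SMAD3, and Tdgf1 encodes Cripto, the Nodal co-receptor. Extraembryonic endoderm is the lineage of the yolk sac, marked by GATA4, GATA6 and SOX17.

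Promoter sequence is shown first for Cyp26a1 and Rarb, because the gene with the largest rise and the RAR gene that was under 1 FPKM in every ESC library both hold a direct repeat of receptor half-sites close to their start. RefSeq promoter windows on GRCm38.p6 run from 250 bases before to 50 bases after each start, here 5′ to 3′ on the strand of the gene, with the half-sites of the direct repeat in capitals. The Cyp26a1 window is chr19:37697558-37697857 on the plus strand, where the repeat reads on the opposite strand and ends 15 bases before the start. The Rarb window is chr14:16575427-16575726 on the minus strand, where the repeat reads in the direction of the gene and ends 36 bases before the start.
Cyp26a1: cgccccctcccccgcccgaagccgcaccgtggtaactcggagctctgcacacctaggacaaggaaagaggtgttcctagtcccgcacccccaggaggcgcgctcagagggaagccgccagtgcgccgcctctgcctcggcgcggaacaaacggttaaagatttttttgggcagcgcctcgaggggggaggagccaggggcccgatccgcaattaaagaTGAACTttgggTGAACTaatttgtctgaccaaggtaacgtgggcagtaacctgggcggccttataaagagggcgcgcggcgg
Rarb: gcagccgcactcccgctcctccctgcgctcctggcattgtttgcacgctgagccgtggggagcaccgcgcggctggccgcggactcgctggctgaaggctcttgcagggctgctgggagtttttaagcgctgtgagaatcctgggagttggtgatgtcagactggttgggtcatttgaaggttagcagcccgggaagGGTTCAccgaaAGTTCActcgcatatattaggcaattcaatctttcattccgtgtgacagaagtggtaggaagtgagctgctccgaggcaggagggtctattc
The search took any pair of half-sites, each being the consensus AGGTCA or a variant of it (AGTTCA, or the form GGGTCA as well as that of GGTTCA), in the same direction with 5 bases between them, on both strands. It matched 32 of 32851 windows (0.0974%), which belong to 31 genes. Of these, 5 were among the genes tested. From ESC to cXENp1, 3 rose (Cyp26a1, Rarb and Ppbp, a platelet chemokine) and none fell, where 22.9% of all tested genes rose and 22.9% fell. All 3 were under 1 FPKM in every ESC library and passed the filter (at least 2 of 8 libraries at 1 FPKM or more) through cXENp1 alone. They could hardly have fallen, so the count of 3 rises says nothing about the motif. Ppbp is listed at 0 in all 4 ESC libraries and read 2.21, 0.853, 15.3 and 20.8 FPKM in cXENp1 of 3WT, 3.34Null-Rescue, 3.34Null and 2.6Null. The other 2, Blvrb and Syndig1, did not pass the test. With 2 bases between the half-sites, 0.268% of windows matched, and of 11 tested genes 5 rose and none fell; with 1 base between them 0.222% matched, and of 25 tested genes 5 rose and 10 fell. A match is a description of letters in these short windows, and elements outside them were not searched.

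Before the comparison, 4 facts of the libraries matter. Expression is in FPKM (fragments per kilobase of transcript, scaled to the library), whose depth is not known here, and its sum over all loci was lower at cXENp1 (424406 to 520485) than in ESC (678479 to 718138) in every line. The description prefix of the libraries is JH for ESC of 3WT, 3.34Null and 3.34Null-Rescue and XH for all others, so that only the 2.6Null pair shares a prefix; prefix and stage cannot be told apart in the other lines. The 2.6Null ESC library stood apart, as the outlying one of the 4 ESC libraries for 43 of the 53 named genes with an outlying ESC value. Those 53 are among the 382 named genes compared below, and chance alone flags about 1 in 20. 2.6Null is also the only line whose ESC library has the prefix XH, so line and prefix cannot be told apart in these differences. Its ESC already held endoderm markers: the 9 markers summed to 74.1 FPKM in 2.6Null ESC against 7.52 to 10.8 in the other ESC libraries. Zfp281 was lower in both knockout lines, with 28.5, 27.7, 3.92 and 0 FPKM in ESC and 25.1, 27.2, 1.29 and 0 in cXENp1 of 3WT, 3.34Null-Rescue, 3.34Null and 2.6Null; values are given in this order of lines throughout. A value of exactly 0 can be a failed estimate, since Hsp90ab1, used by every cell, is listed at 0 in both stages of 3WT and 3.34Null-Rescue.

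From ESC to cXENp1, limma with line as a block called 5834 of 12724 tested genes at an adjusted p under 0.05 (45.9%), 2915 higher (22.9%) and 2919 lower (22.9%). With a log2 change of at least 1, 1614 were higher (12.7%) and 1222 lower (9.6%), and the ranges of the stages did not overlap for 5049 tested genes (39.7%). The split depends on how libraries are scaled: 50% of called genes were higher on the deposited FPKM, 60.7% after upper-quartile scaling and 82.4% after rescaling each library to a common sum, which moved the median change of all tested genes from -0.02 to 0.12 and 0.48. Below, "rose" and "fell" mean called on the deposited values, and the scaling is named where it ends a call. The change had the same sign in all 4 lines for 7323 of the 12724 tested genes. Among called genes this held for 5638, which is partly built in, since the same lines made the calls. Across the tested genes, the log2 changes of 3WT and 3.34Null-Rescue had r = 0.90 and those of 2.6Null and 3.34Null-Rescue r = 0.64, a description over genes, which are not replicates. With the prefix as a term, so that the change rests on 2.6Null alone, 2221 genes were called. Because these are bulk cultures, fewer cells of a type and less RNA per cell cannot be told apart.

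The 2 genes that mark this response were at its extremes in every line. Cyp26a1 (locus chr19:37772298-37776026, mm9), the enzyme that clears retinoic acid, read 0.0324, 0.227, 0.111 and 0.612 FPKM in ESC and 649, 445, 524 and 597 in cXENp1. It was barely present in any ESC library and abundant in every cXENp1 library, a rise of 8.81 ± 0.18 on the log2 scale (SE, 4 pairs, limma adjusted p = 5.6e-07). Tdgf1 (Cripto, locus chr9:110842112-110848662, mm9) read 630.04, 502, 824 and 459 FPKM in ESC and 0.958, 0.287, 1.93 and 2.85 in cXENp1, a log2 change of -8.0 ± 0.27 on the log2 scale (SE, 4 pairs, limma adjusted p = 2.6e-06). The Cripto transcript was thus high in all 4 ESC libraries and under 3 FPKM in all 4 cXENp1 libraries, although near-identical copies elsewhere in the genome make its level uncertain. Both genes kept direction and call under every alternative setting tried.

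**Figure D1:**
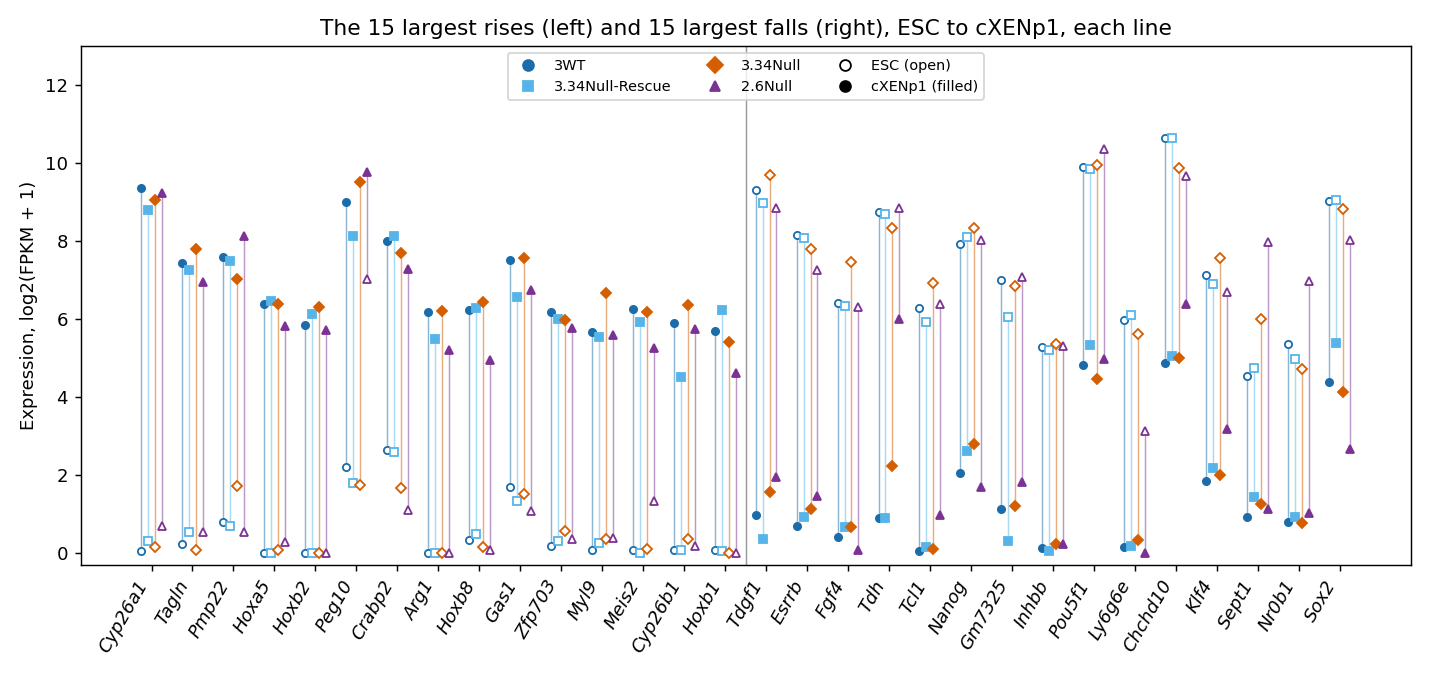
Expression as log2(FPKM + 1) of the 15 genes with the largest rise and the 15 with the largest fall, with open symbols for ESC, filled symbols for cXENp1 and 1 colour and line of connection per cell line. Cyp26a1 rose from under 0.7 FPKM to over 440 in each line and Tdgf1 fell from over 450 FPKM to under 3; the open triangle of 2.6Null stands apart for Peg10, Meis2 and Ly6g6e.

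Besides retinoid and Hox genes, the 15 largest rises held Tagln (transgelin, an actin-binding protein of smooth muscle), Pmp22 (a myelin and junction membrane protein), Arg1 (arginase), Gas1 (a Hedgehog co-receptor) and Zfp703 (a zinc finger corepressor). Pmp22 read 0.717, 0.599, 2.27 and 0.46 FPKM in ESC and 192, 178, 129.7 and 279.6 in cXENp1, a change of 6.63 ± 0.33 on the log2 scale (SE, 4 pairs, limma adjusted p = 1.6e-05). Arg1 is listed at 0 in all 4 ESC libraries and read 71.1, 43.9, 73 and 35.7 FPKM in cXENp1. Zfp703 went from 0.139 to 0.465 FPKM in ESC to 53.3 to 71.3 in cXENp1. No ESC and cXENp1 values overlapped for these genes. The largest falls beyond the pluripotency genes described below held Tdh (threonine dehydrogenase), Gm7325 (also known as Myomixer, a muscle fusion peptide), Inhbb (the activin B subunit), Ly6g6e, Chchd10 (a mitochondrial protein) and Sept1 (a septin). Gm7325 read 127, 64.6, 113 and 133 FPKM in ESC and 1.2, 0.239, 1.29 and 2.51 in cXENp1, a change of -5.62 ± 0.17 on the log2 scale (SE, 4 pairs, limma adjusted p = 2.6e-06). Chchd10 went from 812 to 1598 FPKM in ESC to 28.1 to 81.7 in cXENp1. Every one of these falls left all cXENp1 libraries below all ESC libraries.

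Several genes that carry or break down retinoic acid rose. In the list of retinoic acid metabolism, binding and receptors, 14 of 24 tested genes rose and 3 fell, against 22.9% of all genes in each direction, and the median log2 change was 1.15 beside -0.02 for all genes tested. Among the breakdown enzymes, Cyp26b1 followed Cyp26a1: it read 0.0461, 0.0523, 0.289 and 0.125 FPKM in ESC and 58.8, 21.7, 81.6 and 52.7 in cXENp1, a rise of 5.46 ± 0.28 on the log2 scale (SE, 4 pairs, limma adjusted p = 1.8e-05). Dhrs3, the reductase that turns retinaldehyde back to retinol, went from 0.603 to 2 FPKM in ESC to 55.4 to 95.8 in cXENp1 (5.16 ± 0.19). Of the carriers, Crabp2 read 5.18, 5, 2.16 and 1.15 FPKM in ESC and 256, 279, 206 and 154 in cXENp1, a rise of 5.78 ± 0.18 on the log2 scale (SE, 4 pairs, limma adjusted p = 2.6e-06). Stra6, the receptor that imports retinol, went from 0.0771 to 0.251 FPKM in ESC to 11.2 to 38.6 in cXENp1 (4.39 ± 0.29). These were low in all ESC libraries and higher in every cXENp1 library.

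The receptors parted. Rarb, whose promoter is printed above, read 0.0164, 0.104, 0.637 and 0.0379 FPKM in ESC and 36.7, 33.9, 21.6 and 33.6 in cXENp1, a rise of 4.76 ± 0.27 on the log2 scale (SE, 4 pairs, limma adjusted p = 3.0e-05). Its rise was the smallest in 3.34Null (3.79 against 4.98 to 5.21 in the other lines). Rara and Rxrb were expressed in both stages and did not pass the test: their log2 changes were -0.22 ± 0.27 and -0.28 ± 0.19, with ranges that overlapped between the stages. Rara was higher at cXENp1 in 2.6Null alone, and without that line it was called lower (-0.59). Fabp5, another retinoic acid carrier, did not pass either (-0.36 ± 0.15). The fall of Tgm2, a transglutaminase often used as a retinoid marker in other cells, stood against the list: it read 28.7, 21.7, 91.2 and 24.9 FPKM in ESC and 4.17, 8.46, 1.92 and 4.11 in cXENp1, -2.78 ± 0.51 on the log2 scale (SE, 4 pairs, limma adjusted p = 0.0037).

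**Figure D2:**
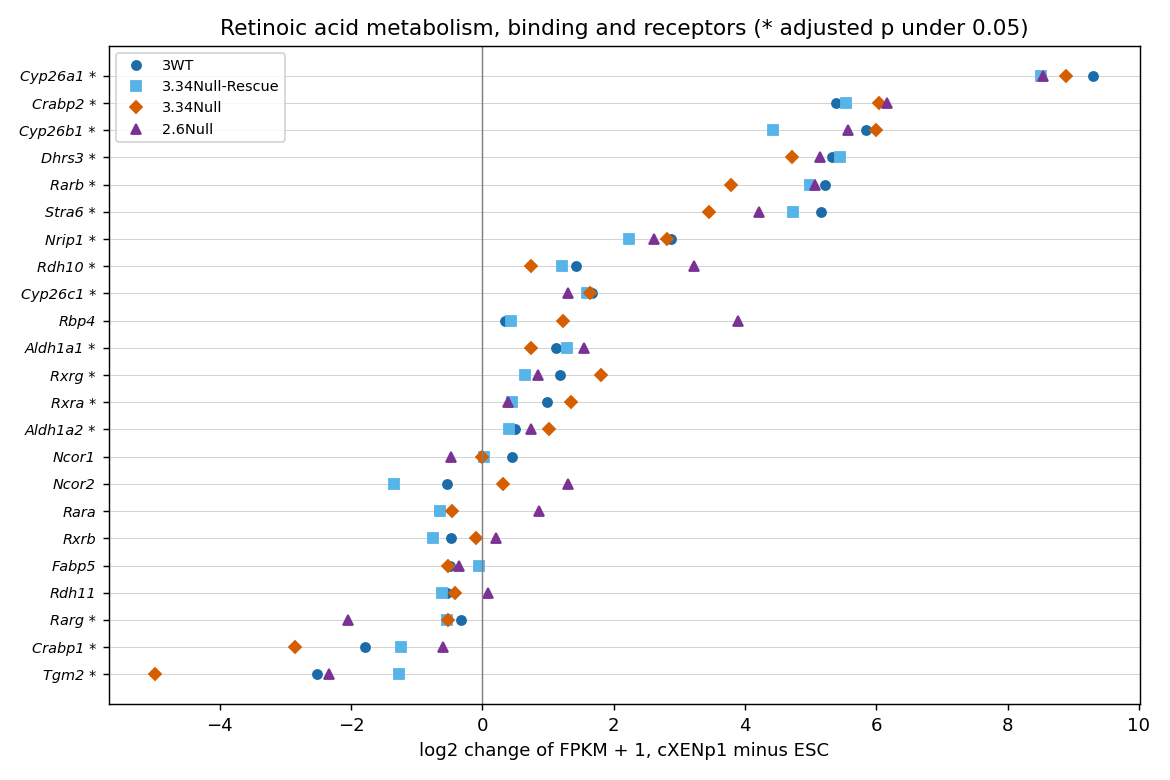
Log2 change of FPKM + 1 from ESC to cXENp1 for 23 of the 24 tested genes of retinoid metabolism, binding and receptors, with 1 symbol per line and an asterisk at genes with an adjusted p under 0.05. The 4 lines lie close together for Cyp26a1, Crabp2 and Dhrs3, and spread around 0 for Rara and Ncor1.

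Hox genes, which give cells their position along the body axis, rose almost as a whole: of 32 tested, 30 rose and none fell, with a median log2 change of 3.33. Most were under 1 FPKM in every ESC library, so they passed the filter through cXENp1 alone and could hardly have been called lower. Their summed level went from 8.67 to 15.6 FPKM in ESC to 448 to 759 in cXENp1. By paralog number, the anterior genes 1 to 4 (11 of 11 called) had a median change of 3.65, the genes 5 to 8 (11 of 11) 4.0 and the posterior genes 9 to 13 (8 of 10) 2.17. By cluster, the median was 4.61 over 10 Hoxb genes, 2.88 over 8 Hoxc genes, 2.76 over 9 Hoxa genes and 1.18 over 5 Hoxd genes. Several went from near 0 to abundant in every line. Hoxb1 read 0.0476, 0.0252, 0 and 0 FPKM in ESC and 51, 74.2, 41.6 and 23.3 in cXENp1, a rise of 5.46 ± 0.27 on the log2 scale (SE, 4 pairs, limma adjusted p = 1.5e-05). Hoxb2 is listed at 0 in all ESC libraries and read 56.1, 68.8, 78 and 51.8 FPKM in cXENp1. Hoxb8 went from 0.0537 to 0.405 FPKM in ESC to 29.9 to 85.6 in cXENp1 and Hoxb6 from 0 to 0.178 FPKM in ESC to 33.2 to 57.6 in cXENp1. Hoxa5 went from 0 to 0.213 FPKM in ESC to 55.3 to 87.6 in cXENp1, but its locus in the table (chr6:52119061-52163596, mm9) also spans Hoxa3, Hoxa4 and Hoxa6, so reads could be split among them.

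At the 5' end of the clusters the picture was less even. Hoxb13 rose in all 4 lines, with 65.2, 9.26, 16.3 and 28.3 FPKM in cXENp1 against 0.417, 0.442, 0.152 and 0.103 in ESC (4.25 ± 0.40). Hoxc12 and Hoxc13 did not pass the test (-0.34 ± 0.40 and -0.18 ± 0.44). For both, the change was negative in 3WT and 3.34Null-Rescue and positive in 3.34Null and 2.6Null, a difference that the test of lines without against lines with Zfp281 did not call (adjusted p = 0.18 and 0.24 by limma). The partner proteins moved with the Hox genes: among Hox cofactors and Cdx genes, 8 of 12 tested genes rose and none fell. Meis2, a TALE homeodomain partner, read 0.0464, 0, 0.0695 and 1.51 FPKM in ESC and 75.8, 59.3, 71.9 and 37.3 in cXENp1, 5.53 ± 0.37 on the log2 scale (SE, 4 pairs, limma adjusted p = 5.3e-05). Meis1 (4.17 ± 0.36) and Meis3 (1.67 ± 0.18) rose too, whereas Pknox1 and Pbx4 did not pass (-0.12 ± 0.19 and -0.77 ± 0.28), although Pbx4 was called lower without 2.6Null (-1.12). The caudal gene Cdx2 reached only 0.359 to 2.58 FPKM.

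**Figure D3:**
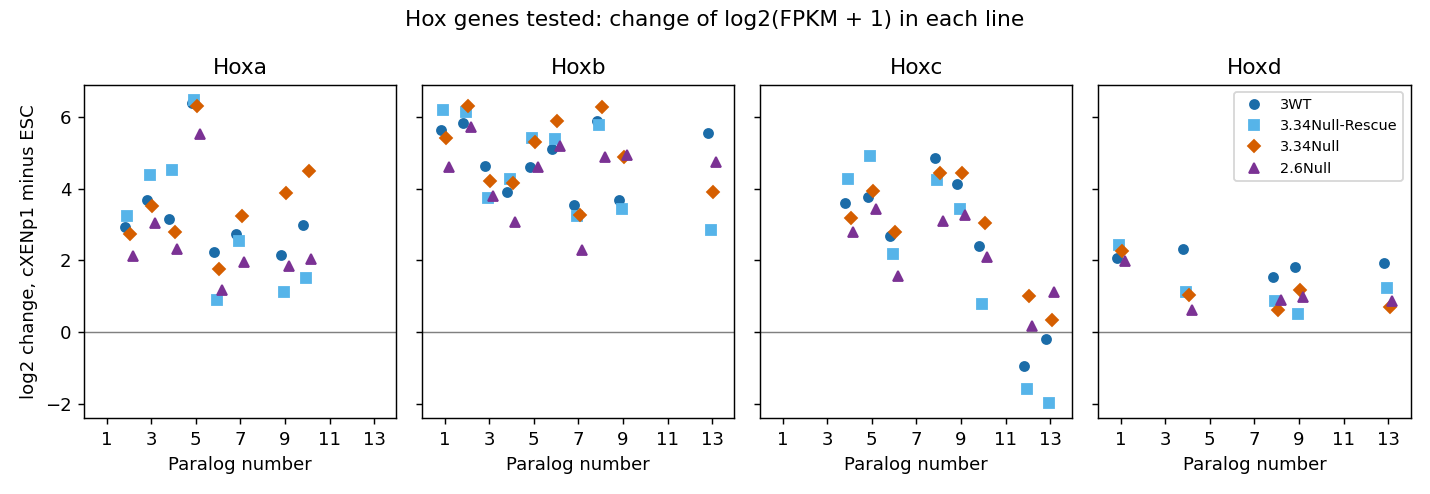
Log2 change of FPKM + 1 from ESC to cXENp1 for 31 of the 32 tested Hox genes, by paralog number within each of the clusters Hoxa to Hoxd, with 1 symbol per line. Nearly all points lie above 0, Hoxb genes highest with a median of 4.61, and Hoxc12 and Hoxc13 spread around 0.

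The pluripotency network fell in every line. Of 18 factors tested, 17 fell and none rose, with a median log2 change of -4.11. Esrrb, an orphan nuclear receptor of naive cells, read 282, 269, 221 and 151 FPKM in ESC and 0.618, 0.875, 1.19 and 1.75 in cXENp1, -6.77 ± 0.27 on the log2 scale (SE, 4 pairs, limma adjusted p = 5.1e-06). Nanog read 239, 271, 321 and 259.7 FPKM in ESC and 3.15, 5.13, 5.87 and 2.24 in cXENp1, -5.80 ± 0.18 on the log2 scale (SE, 4 pairs, limma adjusted p = 2.6e-06). In both genes, all cXENp1 libraries lay under 6 FPKM. The core factors were reduced but not lost. Pou5f1 (Oct4) read 957, 912, 977 and 1312 FPKM in ESC and 27, 39.6, 21 and 30.6 in cXENp1, -5.11 ± 0.19 on the log2 scale (SE, 4 pairs, limma adjusted p = 3.8e-06). Sox2 read 521, 525, 452 and 261 FPKM in ESC and 19.96, 40.8, 16.4 and 5.35 in cXENp1, -4.59 ± 0.25 on the log2 scale (SE, 4 pairs, limma adjusted p = 3.0e-05). Sox2 was highest in 3.34Null-Rescue and lowest in 2.6Null at cXENp1. Tcl1, an AKT co-activator of ESC, went from 59.8 to 119.6 FPKM in ESC to 0.0356 to 0.965 in cXENp1, and Nr0b1 (Dax1) from 25.3 to 124 FPKM in ESC to 0.713 to 1.02 in cXENp1. Gbx2 was the exception and did not pass the test (0.74 ± 0.54): it read 13.8, 6.69, 8.36 and 75.7 FPKM in ESC and 38.8, 20.5, 32.8 and 21 in cXENp1, higher at cXENp1 in 3 lines and lower in 2.6Null. Without 2.6Null it was called higher (1.59).

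Genes of the formative and primed epiblast, the states that follow naive pluripotency, split: 5 of 16 tested genes rose and 7 fell, with a median of -0.27 that turned to 0.10 when libraries were scaled to a common sum. Otx2, a driver of the formative state, read 8.87, 9.99, 4.97 and 6.84 FPKM in ESC and 0.0258, 0.355, 0 and 0.133 in cXENp1, -2.91 ± 0.20 on the log2 scale (SE, 4 pairs, limma adjusted p = 6.1e-05). Utf1 fell (-3.97 ± 0.46) from 174 to 422 FPKM in ESC to 6.38 to 37.1 in cXENp1. Fgf5, a primed epiblast ligand, rose only to 2.17 to 4.04 FPKM (1.91 ± 0.21), and Sox3 rose from 0.78 to 1.58 FPKM in ESC to 4.36 to 41 in cXENp1 (2.87 ± 0.45). Sall2 (3.22 ± 0.21) and the DNA methyltransferase Dnmt3a (1.48 ± 0.17) rose as well, while Dnmt3b and Dnmt3l did not pass (0.72 ± 0.26 and -1.15 ± 0.44). Dnmt3b was called higher without 2.6Null (0.80), without 3WT (1.00) and after upper-quartile scaling (0.86), and Dnmt3l was called lower without 3.34Null (-1.81).

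Several genes downstream of LIF and its factor STAT3 fell. In that list 2 of 15 tested genes rose and 7 fell. Socs3, a feedback inhibitor that STAT3 induces, read 143, 132, 91.8 and 50.4 FPKM in ESC and 3.97, 4.42, 5.14 and 5.32 in cXENp1, -4.11 ± 0.29 on the log2 scale (SE, 4 pairs, limma adjusted p = 6.8e-05). Tfcp2l1, a STAT3 target of naive cells, fell from 54.1 to 143 FPKM in ESC to 2.79 to 3.86 in cXENp1 (-4.53 ± 0.27). Bcl3 (-2.44 ± 0.26), Pim3 (-2.44 ± 0.18) and Stat3 itself (-1.10 ± 0.17) fell, while the kinase Jak2 rose (1.84 ± 0.20). Pim1, a further STAT3 target, did not pass: it read 98.5, 84.4, 48.1 and 37.3 FPKM in ESC and 38.9, 33.7, 105 and 65.4 in cXENp1, lower at cXENp1 in the lines with Zfp281 and higher in those without. Of 14 Kruppel-like factors tested, 11 fell and 1 rose, with a median of -1.20. With the prefix as a term the median was -0.66 and fewer were called lower. Klf4 read 139, 117, 188 and 103 FPKM in ESC and 2.56, 3.53, 3 and 8.06 in cXENp1, -4.77 ± 0.31 on the log2 scale (SE, 4 pairs, limma adjusted p = 5.2e-05). Klf2 (-3.95 ± 0.26) and Klf5 (-2.15 ± 0.35), the other factors of that family known from naive ESC, fell with it. Klf6 was the one that rose, from 10.7 to 15.1 FPKM in ESC to 28.3 to 72.8 in cXENp1 (1.82 ± 0.23).

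Activin was added, yet the Nodal and activin list did not move one way: 11 of 24 tested genes rose and 7 fell, with a median of 0.16. On the side of ligands and co-receptors, Tdgf1 fell as given above, and Inhbb read 37.7, 36.1, 40.01 and 38.9 FPKM in ESC and 0.0843, 0.0332, 0.171 and 0.166 in cXENp1, -5.14 ± 0.17 on the log2 scale (SE, 4 pairs, limma adjusted p = 2.6e-06). Gdf3, a Nodal-related ligand, fell from 28.7 to 60.9 FPKM in ESC to 1.69 to 11.5 in cXENp1 (-2.61 ± 0.45), as did the convertase Pcsk6 (-1.69 ± 0.18). Nodal itself did not pass (-0.54 ± 0.27): it read 21.1, 30.1, 23.3 and 32.4 FPKM in ESC and 18, 37.9, 12.4 and 11.5 in cXENp1. Without 3.34Null-Rescue, the only line with a higher value at cXENp1, it was called lower (-0.83). Among targets, Lefty1, a feedback inhibitor of Nodal, read 50.7, 45.2, 8.43 and 3.12 FPKM in ESC and 52.8, 309, 75.1 and 10.1 in cXENp1, a rise of 1.81 ± 0.44 on the log2 scale (SE, 4 pairs, limma adjusted p = 0.012). The call of Lefty1 was lost without the block, with 12 libraries in the fit, with the prefix as a term (1.43) and without 3.34Null (1.41). Its rise was larger in 3.34Null and 3.34Null-Rescue than in 3WT, where the 2 values nearly match. Lefty2 and Smad7 did not pass (-0.19 ± 0.39 and -0.34 ± 0.21). Fstl1, a secreted follistatin-like protein, rose (2.1 ± 0.20), and so did the SMAD corepressor Skil (1.62 ± 0.17).

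In the related TGF-beta list, 9 of 15 tested genes rose and 2 fell. Thbs1 (thrombospondin, a TGF-beta activator) read 0.0231, 0.0171, 0.0227 and 0.697 FPKM in ESC and 14.1, 16.6, 43.2 and 18.2 in cXENp1, 4.23 ± 0.31 on the log2 scale (SE, 4 pairs, limma adjusted p = 7.4e-05). The ligands went opposite ways, Tgfb2 up from 0.0314 to 0.1 FPKM in ESC to 3.53 to 8.67 in cXENp1 (2.81 ± 0.24) and Tgfb1 down from 6.56 to 17.2 FPKM in ESC to 1.72 to 4.72 in cXENp1 (-1.39 ± 0.26). The receptors Tgfbr1 (1.35 ± 0.19) and Tgfbr3 (1.72 ± 0.26) rose.

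Most BMP genes rose: 17 of 24 tested genes rose and 1 fell, with a median of 1.12, and 10 rose and 1 fell with 12 libraries in the fit. The ID proteins are helix-loop-helix inhibitors that BMP signalling induces. Id3 read 12.2, 7.92, 3.22 and 23.4 FPKM in ESC and 313, 109.8, 219 and 294 in cXENp1, 4.38 ± 0.33 on the log2 scale (SE, 4 pairs, limma adjusted p = 8.4e-05). Id2 read 4.03, 2.15, 6 and 10.3 FPKM in ESC and 106, 175, 110.4 and 77.9 in cXENp1, 4.25 ± 0.41 on the log2 scale (SE, 4 pairs, limma adjusted p = 0.00023). Each cXENp1 library exceeded each ESC library for both genes. Id1 did not pass (1.76 ± 0.63), with 353 FPKM in 2.6Null ESC against 11 to 34.1 in the other ESC libraries. Without 2.6Null it was called higher (2.71). Msx1 and Msx2, homeobox targets of BMP, rose (4.90 ± 0.27 and 3.07 ± 0.29), and so did the inhibitory Smad6 (2.44 ± 0.18) and the antagonist Nog (1.88 ± 0.23). The ligand Bmp4 did not pass (-1.40 ± 0.69).

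The ESC ligand of the FGF family and several FGF target genes fell. Over the list 8 of 25 tested genes rose and 6 fell, and the median (-0.07) changed sign after upper-quartile (0.04) and common-sum scaling (0.40), so no direction is given for the list. Without the block 5 rose and 6 fell, and with 12 libraries 4 and 6. Fgf4, the autocrine ESC ligand, read 83.4, 79.8, 175 and 78.3 FPKM in ESC and 0.326, 0.579, 0.57 and 0.0546 in cXENp1, -6.18 ± 0.22 on the log2 scale (SE, 4 pairs, limma adjusted p = 2.9e-06). Spry4 (-4.11 ± 0.33), Spry2 (-2.78 ± 0.33), Etv4 (-3.58 ± 0.23) and Etv5 (-2.36 ± 0.26), all targets of FGF and ERK signalling, fell. In contrast Dusp6, an ERK phosphatase, did not pass (1.16 ± 0.51) but was called higher without 2.6Null (1.78) and with a common sum (1.70). The receptor Fgfr2 rose from 0.227 to 0.637 FPKM in ESC to 11.2 to 22.8 in cXENp1 (3.53 ± 0.25).

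In the WNT list 26 of 39 tested genes rose and 4 fell. The frizzled receptors changed places. Fzd2 read 2.46, 1.78, 1.16 and 0.975 FPKM in ESC and 56.4, 56.3, 49.1 and 41.9 in cXENp1, 4.35 ± 0.17 on the log2 scale (SE, 4 pairs, limma adjusted p = 5.1e-06). Fzd5 read 67.9, 55.3, 50.4 and 29 FPKM in ESC and 3.31, 4, 4.32 and 2.6 in cXENp1, -3.45 ± 0.20 on the log2 scale (SE, 4 pairs, limma adjusted p = 3.1e-05). Fzd8 (3.02 ± 0.20), Fzd4 (2.36 ± 0.39) and Fzd1 (2.32 ± 0.24) rose with Fzd2. Secreted regulators included a rise of the agonist Rspo3 (3.00 ± 0.43) and the inhibitor Dkk1 (2.52 ± 0.26) and a fall of Sfrp1 (-2.46 ± 0.50). Ctnnb1, which encodes beta-catenin, did not pass (0.36 ± 0.16) on the deposited scale but was called higher after upper-quartile (0.52), quantile (0.87) and common-sum (0.90) scaling. Hedgehog genes split, with 8 of 12 higher and 3 lower. The co-receptor Gas1 read 2.23, 1.53, 1.85 and 1.11 FPKM in ESC and 179.9, 93.3, 188 and 105 in cXENp1, 5.68 ± 0.19 on the log2 scale (SE, 4 pairs, limma adjusted p = 2.6e-06). Cdon, another co-receptor, and Gli3, the repressor member of the GLI factors, rose (2.26 ± 0.21 and 2.60 ± 0.20), while Gli1, the pathway's transcriptional readout, fell from 2.9 to 25 FPKM in ESC to 0.812 to 4.23 in cXENp1 (-1.84 ± 0.26), as did Gli2 (-1.52 ± 0.19), whose call was lost without the block.

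Genes of the actin cytoskeleton and smooth muscle contraction rose in large part. Of that list, 24 of 33 tested genes rose and 3 fell, with a median of 1.65. Tagln read 0.163, 0.438, 0.06 and 0.44 FPKM in ESC and 172, 150.3, 219 and 122 in cXENp1, 7.01 ± 0.23 on the log2 scale (SE, 4 pairs, limma adjusted p = 2.6e-06). Myl9, a regulatory myosin light chain, read 0.0535, 0.181, 0.285 and 0.297 FPKM in ESC and 49.7, 45, 100.4 and 47.1 in cXENp1, 5.60 ± 0.23 on the log2 scale (SE, 4 pairs, limma adjusted p = 5.5e-06). Acta2, smooth muscle actin, is listed at 0 in all ESC libraries and read 17.6, 6.46, 24.6 and 20.9 FPKM in cXENp1. In all 3 genes the 2 stages were far apart in every line. Tropomyosin Tpm1 (3.62 ± 0.21), caldesmon Cald1 (3.01 ± 0.19) and calponins Cnn1 (3.29 ± 0.22) and Cnn2 (2.78 ± 0.25) rose, whereas the general actin Actb did not pass (0.50 ± 0.20) but was called higher after upper-quartile (0.66), quantile (1.24) and common-sum (1.03) scaling and without 3WT (0.71). The Tagln locus in the table also spans Pcsk7 and Rnf214, so that reads could be split among them.

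The CArG box, the site of serum response factor (SRF), is shown for Myl9 because the match lies in a gene among the 15 largest rises. Its window is chr2:156775214-156775513 on the plus strand of GRCm38.p6 (RefSeq), 5′ to 3′, with the CArG box in capitals, ending 151 bases before the start.
Myl9: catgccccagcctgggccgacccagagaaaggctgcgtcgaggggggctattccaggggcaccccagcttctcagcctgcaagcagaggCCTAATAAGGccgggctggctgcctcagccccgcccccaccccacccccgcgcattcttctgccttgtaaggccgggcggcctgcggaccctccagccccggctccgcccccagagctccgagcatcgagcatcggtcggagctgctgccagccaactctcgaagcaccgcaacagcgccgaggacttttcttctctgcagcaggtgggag
A CArG box, searched under its usual definition (a pair of C, 6 letters that are each A or T, and a pair of G), was found on either strand in 1.63% of all windows. Of the 33 tested genes of the actin list, 29 had a window and 8 a match (Acta1, Actc1, Actg1, Cnn2, Myl6, Myl9, Srf and Vcl), and all 8 rose. In that list 24 of 33 rose, with or without a match, and the list was chosen with earlier results known. The part of the box in these rises was therefore not tested. Over all tested genes with a window, 147 had a match, of which 46 rose and 25 fell, where 22.9% of all tested genes rose and 22.9% fell.

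Targets and regulators of YAP, a co-activator that responds to adhesion and tension, rose with the actin genes: 18 of 22 tested genes rose and 1 fell, median 1.92. Cyr61 (CCN1), a secreted matrix protein, read 1.67, 2.3, 3.45 and 16.2 FPKM in ESC and 92.4, 92.9, 166 and 173 in cXENp1, 4.63 ± 0.31 on the log2 scale (SE, 4 pairs, limma adjusted p = 5.2e-05). Ctgf (CCN2) read 0.9, 1.16, 6.74 and 12.5 FPKM in ESC and 15.5, 23.1, 41.3 and 114 in cXENp1, 3.04 ± 0.21 on the log2 scale (SE, 4 pairs, limma adjusted p = 5.4e-05). For Ctgf, 2.6Null was highest at both stages. Amot (3.64 ± 0.24), Amotl2 (2.93 ± 0.23) and the kinase Lats2 (2.28 ± 0.21), negative regulators of YAP, rose too, while Tead1 and Wwtr1 (TAZ) did not pass (0.81 ± 0.29 and 0.27 ± 0.25). Tead1 was called higher after upper-quartile scaling (0.96) and without 3.34Null-Rescue (1.06).

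Mesenchymal cadherin and its regulators rose, while E-cadherin moved differently among the lines. In the list of the epithelial and mesenchymal switch, 11 of 27 tested genes rose and 3 fell, against 7 and 1 with 12 libraries. Cdh2, N-cadherin, read 0.177, 0.221, 0.0198 and 0.192 FPKM in ESC and 23.3, 23.8, 13.6 and 6.39 in cXENp1, 3.79 ± 0.31 on the log2 scale (SE, 4 pairs, limma adjusted p = 0.00010). Snai1 (2.25 ± 0.23), Twist1 (1.70 ± 0.36), Zeb2 (1.25 ± 0.22) and vimentin, Vim (1.91 ± 0.23), rose. Cdh1, E-cadherin, did not pass (0.01 ± 0.39): it read 164, 196, 92.4 and 77.5 FPKM in ESC and 62.3, 129, 184 and 159 in cXENp1. It was lower at cXENp1 in 3WT and 3.34Null-Rescue and higher in 3.34Null and 2.6Null, as were the tight junction claudins Cldn4 and Cldn7. Cldn6 rose from 11.7 to 49.3 FPKM in ESC to 48.8 to 184 in cXENp1 (2.06 ± 0.52), a call lost without 3.34Null (1.77), and Epcam did not pass (-0.45 ± 0.29). Keratins of simple epithelia rose together. Krt8 read 17.5, 14.4, 17.6 and 67.7 FPKM in ESC and 158, 149, 289.6 and 548 in cXENp1, 3.34 ± 0.19 on the log2 scale (SE, 4 pairs, limma adjusted p = 3.1e-05), and its partner Krt18 (4.20 ± 0.31) and Krt19 (2.90 ± 0.48) did likewise. Krt8 and Krt18 have many near-identical pseudogenes, so their levels are uncertain. Krt42 and Krt17 fell (-2.90 ± 0.40 and -2.80 ± 0.39), so that of 8 tested keratins 4 rose and 2 fell. Connexins, the gap junction channels, exchanged members. Of 9 tested, 5 fell and 2 rose. Gjb5 read 12.7, 13.2, 12.9 and 23.1 FPKM in ESC and 1.77, 1.44, 0.618 and 2.45 in cXENp1, -2.69 ± 0.20 on the log2 scale (SE, 4 pairs, limma adjusted p = 8.0e-05), whereas Gja1 (connexin 43) and Gjb2 rose (2.47 ± 0.41 and 3.51 ± 0.41).

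Most stromal matrix genes rose. Of 23 tested, 21 rose and 1 fell, while 6 rose and 1 fell with 12 libraries in the fit. Members near 0 in ESC could hardly have been called lower. With a mean of at least 5 FPKM, 10 were tested, of which 8 rose and 1 fell. The summed level of the list went from 71.8 to 125 FPKM in ESC to 195 to 297 in cXENp1. Fibrillin Fbn2 went from 0.0249 to 0.249 FPKM in ESC to 7.63 to 32.1 in cXENp1 (3.92 ± 0.30) and collagen Col12a1 from 0.00338 to 0.013 FPKM in ESC to 2.06 to 8.03 in cXENp1 (2.45 ± 0.31). Col1a2 was uneven, with 38.5, 27.8, 2.74 and 0.563 FPKM in cXENp1 against under 0.3 in every ESC library (3.02 ± 0.69). It was high in the lines with Zfp281 and low in those without. Feeder fibroblast markers moved beside these genes: of 15 listed, 8 were tested, 6 rose and 1 fell (2 and 0 with 12 libraries), and the summed level was 3.87 to 22.4 FPKM in ESC and 17.7 to 71.1 in cXENp1. With a mean of at least 5 FPKM only 1 of these markers was tested, and Prrx1 and Postn were under 1 FPKM in all 8 libraries. Per the labels' protocols both stages grew on gelatin without feeders, and the part of other cells in the matrix genes was not tested.

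Genes of primitive endoderm, the target lineage, were higher in the paired fit, but Gata4, Gata6 and Sox17 stayed below the XEN lines in all 4 lines. Of 26 tested, 19 rose and 2 fell, with a median of 2.00. Without the block of lines 8 rose and 2 fell, and with 12 libraries in the fit 6 rose and 2 fell. Gata6 read 0.0558, 0.0642, 0.562 and 10.5 FPKM in ESC and 18.2, 7.04, 6.88 and 43.3 in cXENp1, 2.84 ± 0.35 on the log2 scale (SE, 4 pairs, limma adjusted p = 0.00063). Gata4 read 0.396, 0.364, 2.67 and 12 FPKM in ESC and 2.72, 0.923, 4.57 and 91.2 in cXENp1. Sox17 read 0.0167, 0.0712, 0.653 and 4.59 FPKM in ESC and 2.38, 1.95, 7.67 and 32.2 in cXENp1. The 2.6Null ESC library lay above the cXENp1 libraries of 3WT and 3.34Null-Rescue for Gata4 and Sox17 and between them for Gata6. At cXENp1, 2.6Null was the highest for all 3 genes. The XEN lines XENB1 and XEN5 read 326 and 430 FPKM of Gata4, 158 and 196 of Gata6 and 206 and 153 of Sox17. Over the 9 markers, the sum was 56.9 to 80.0 FPKM in cXENp1 of 3WT, 3.34Null-Rescue and 3.34Null, 717 in 2.6Null, and 1026 and 1410 in the XEN lines. Lama1 gave 234 FPKM of the sum in 2.6Null and is listed at 0 in the XEN lines. At cXENp1 of 2.6Null, Sox7, Foxa2 and Pdgfra were also below both XEN lines, Dab2 lay between them and Cubn above both.

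Other endoderm genes rose from low levels in every line. Plat, tissue plasminogen activator of parietal endoderm, read 0.86, 0.716, 0.208 and 0.608 FPKM in ESC and 64, 34.2, 16.2 and 46.5 in cXENp1, 4.55 ± 0.25 on the log2 scale (SE, 4 pairs, limma adjusted p = 2.5e-05). Lrp2 (megalin, an endocytic receptor) rose from 0.15 to 1.86 FPKM in ESC to 8.37 to 35 in cXENp1 (3.33 ± 0.27), Foxq1 from 0.0831 to 5.84 FPKM in ESC to 7.86 to 50.5 in cXENp1 (3.26 ± 0.27) and Foxa2 from 0 to 1.2 FPKM in ESC to 3.9 to 23.7 in cXENp1 (3.27 ± 0.35). Apoe fell, from 508 to 1779 FPKM in ESC to 43.8 to 337 in cXENp1 (-3.07 ± 0.26). Basement membrane genes, which parietal endoderm makes in quantity, had 11 of 16 higher and 1 lower, against 7 and 1 without the block and 5 and 1 with 12 libraries. Col4a1 read 4.94, 10.7, 7.98 and 67.3 FPKM in ESC and 43.6, 46, 51.3 and 772 in cXENp1, 2.74 ± 0.24 on the log2 scale (SE, 4 pairs, limma adjusted p = 0.00015), a call lost without the block, as was that of Col4a2. Lamb1 and Col4a2 rose as well (2.62 ± 0.26 and 2.58 ± 0.27), again most abundant in 2.6Null, while Nid1 fell (-1.73 ± 0.32). Lamc1 did not pass (0.63 ± 0.37) but was called higher without 3.34Null-Rescue (1.03).

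**Figure D4:**
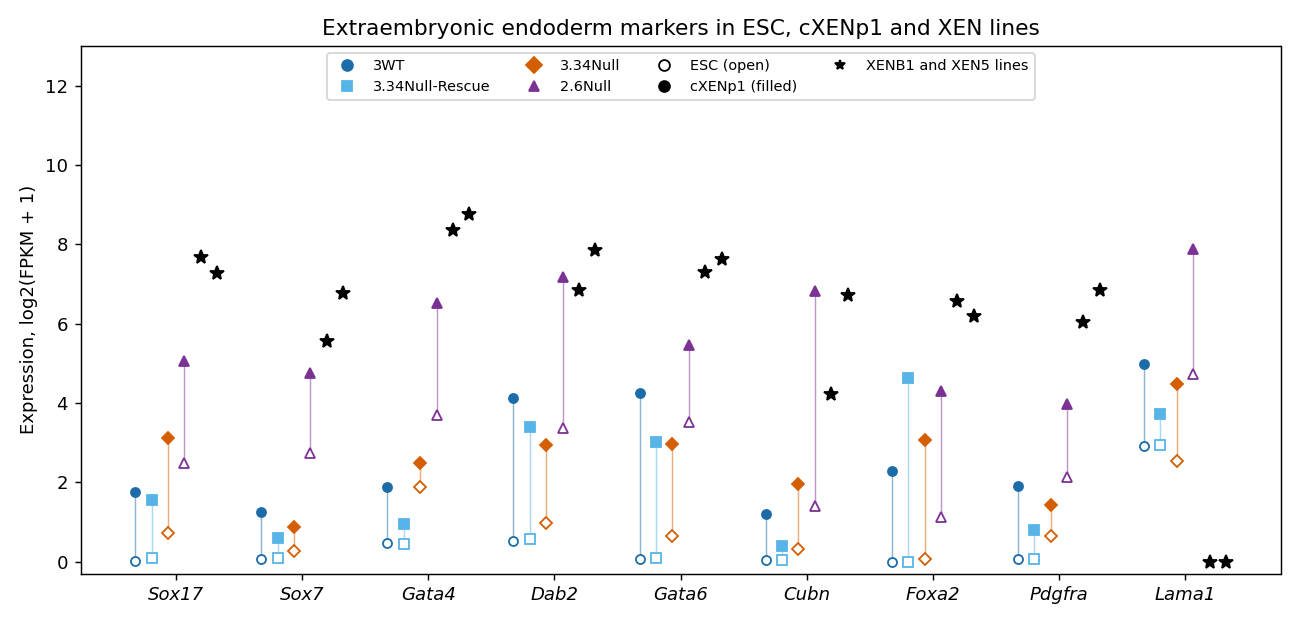
Expression as log2(FPKM + 1) of the 9 extraembryonic endoderm markers in ESC (open) and cXENp1 (filled) of each line, with the XENB1 and XEN5 lines as stars. 2.6Null sits above the other lines at both stages, except for Foxa2 at cXENp1. All cXENp1 libraries, that of 2.6Null included, stay below the XEN lines for Gata4, Gata6 and Sox17. Lama1 is listed at 0 in both XEN lines.

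Markers of other lineages were mixed and mostly low. For mesendoderm and primitive streak, 9 of 18 listed genes were tested, 5 rose and 1 fell. Of the 5 markers T, Eomes, Mixl1, Gsc and Mesp1, 2 were tested, of which 0 rose and 1 fell. Eomes and Gsc were lower at cXENp1 in every line. Eomes read 3.75, 3.79, 2.05 and 4.43 FPKM in ESC and 0.854, 0.982, 1.41 and 3.53 in cXENp1. T, Mixl1 and Mesp1 were under 1 FPKM in all 8 libraries, and Foxa1, a pioneer factor of endoderm, went from 0.0174 to 0.326 FPKM in ESC to 12.2 to 27.1 in cXENp1 (4.02 ± 0.24). Hand2 (2.26 ± 0.39) and Meox1 (2.35 ± 0.30), factors of heart and paraxial mesoderm, rose to low levels. Among neural and neural crest genes 11 of 21 tested genes rose and 6 fell. The neural marker Tubb3 was lower at cXENp1 in every line. It read 70.5, 84.2, 35.0 and 59.4 FPKM in ESC and 14.6, 61.6, 30.1 and 12.1 in cXENp1. Pax6, an eye and brain factor, rose from 0.042 to 0.324 FPKM in ESC to 4.03 to 16.4 in cXENp1 (2.88 ± 0.29), as did Irx3 (3.26 ± 0.28), Sox9 (2.35 ± 0.23) and nestin, Nes (2.47 ± 0.29), whereas Foxd3, which ESC also express, fell (-2.98 ± 0.44) and Sox1 did not pass (-0.22 ± 0.53). Of 12 trophoblast genes 5 rose and 3 fell. With a mean of at least 5 FPKM, 3 were tested, of which 0 rose and 2 fell. Gata3 rose from 0 to 0.136 FPKM in ESC to 3.15 to 10.2 in cXENp1 (2.80 ± 0.27), Elf5 and Hand1 were under 1 FPKM in all 8 libraries, and Tfap2c fell (-3.96 ± 0.76) from 67.7, 107, 54.5 and 1.86 FPKM to 0.581, 1.24, 1.67 and 1.09. The 2.6Null ESC library had little Tfap2c to begin with.

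Imprinted genes, of which only the copy from one parent is active, were another rising group: 17 of 26 tested genes rose and 1 fell, median 1.70, or 0.82 in 2.6Null. H19, a noncoding RNA, read 1.86, 1.9, 0.983 and 2.58 FPKM in ESC and 194, 100.4, 83.6 and 79.98 in cXENp1, 5.28 ± 0.25 on the log2 scale (SE, 4 pairs, limma adjusted p = 1.4e-05). Its neighbour Igf2, a fetal growth factor, read 0.343, 0.294, 0.239 and 0.749 FPKM in ESC and 32.8, 19.3, 17 and 12.1 in cXENp1, 3.85 ± 0.28 on the log2 scale (SE, 4 pairs, limma adjusted p = 7.2e-05). All cXENp1 libraries exceeded all ESC libraries for both. Peg10, a retrotransposon-derived placental gene, read 3.56, 2.44, 2.32 and 129 FPKM in ESC and 512, 277, 725 and 868 in cXENp1, 5.92 ± 0.69 on the log2 scale (SE, 4 pairs, limma adjusted p = 0.00051), with 2.6Null ESC already high. Peg3 (4.67 ± 0.29), Mest (4.02 ± 0.34), Plagl1 (3.33 ± 0.36), Dlk1 (3.27 ± 0.50) and Cdkn1c (2.74 ± 0.57), a set that includes growth regulators, rose. Dlk1 reached 47, 17, 4.17 and 3.05 FPKM, higher in the lines with Zfp281. Meg3 and Rian, noncoding RNAs of the Dlk1 domain, did not pass (-0.99 ± 0.58 and 0.45 ± 0.30), and both were low in 2.6Null at both stages. In the insulin-like growth factor system, which holds Igf2 too, 11 of 13 rose and none fell. Igfbp5, a binding protein, read 0.399, 0.227, 0.113 and 0.00761 FPKM in ESC and 157, 47.7, 14.5 and 3.86 in cXENp1, 4.55 ± 0.63 on the log2 scale (SE, 4 pairs, limma adjusted p = 0.0010). The rise was steepest in 3WT and least in 2.6Null. The adaptors Irs1 and Irs2 rose (1.92 ± 0.23 and 2.34 ± 0.31), as did the receptor Igf1r (1.09 ± 0.23).

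Transcripts of the two-cell embryo and some of germ cells rose. Among two-cell-like genes 9 of 11 tested genes rose and 1 fell. Members near 0 in ESC, such as Zscan4c and Zscan4d, passed the filter through cXENp1 and could hardly have been called lower. Zscan4c, of a family that marks rare two-cell-like ESC, read 0, 0.0207, 0.0273 and 0.815 FPKM in ESC and 47.6, 22.8, 79.5 and 49.96 in cXENp1, 5.31 ± 0.30 on the log2 scale (SE, 4 pairs, limma adjusted p = 3.0e-05). Zscan4d read 0, 0.0231, 0.0295 and 1.07 FPKM in ESC and 50.1, 23.4, 101 and 53.1 in cXENp1, 5.40 ± 0.34 on the log2 scale (SE, 4 pairs, limma adjusted p = 4.8e-05). The Zscan4 copies are nearly identical, so the split of reads among them is uncertain, while all 6 rose in all 4 lines. Stra8, a meiosis gene first found as stimulated by retinoic acid, read 4.85, 5.88, 13 and 4.07 FPKM in ESC and 183, 350.1, 247 and 218 in cXENp1, 5.06 ± 0.25 on the log2 scale (SE, 4 pairs, limma adjusted p = 1.6e-05). Within Dppa and germ cell genes, 8 of 18 tested genes rose and 4 fell, against 5 and 3 both without the block and with 12 libraries. Dppa5a, abundant in ESC, fell from 3342 to 6225 FPKM in ESC to 242 to 997 in cXENp1 (-3.03 ± 0.22), and Dppa3 fell (-2.19 ± 0.38), whereas Dppa2 rose from 15.3 to 55.1 FPKM in ESC to 39.96 to 160.2 in cXENp1 (1.80 ± 0.36), and Taf7l and Mael rose (2.30 ± 0.19 and 1.52 ± 0.23). Dazl did not pass (0.40 ± 0.33).

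Many metabolic genes fell. In serine, glycine and threonine metabolism 1 of 17 tested genes rose and 9 fell. Tdh, the enzyme that feeds threonine into one-carbon units in mouse ESC, read 429, 409.7, 319 and 455 FPKM in ESC and 0.848, 0.868, 3.69 and 62.3 in cXENp1, -6.15 ± 0.73 on the log2 scale (SE, 4 pairs, limma adjusted p = 0.00056). Psat1 of serine synthesis read 329, 246, 254 and 295 FPKM in ESC and 43.3, 49.3, 47.5 and 63.4 in cXENp1, -2.45 ± 0.16 on the log2 scale (SE, 4 pairs, limma adjusted p = 5.3e-05). Tdh stayed at 62.3 FPKM in 2.6Null, and Psat1 fell alike in all lines. Shmt1 and Shmt2 fell too (-1.57 ± 0.18 and -1.46 ± 0.17), while Phgdh did not pass (-0.48 ± 0.21) but was called lower without 3.34Null (-0.73). In the list of the amino acid and unfolded protein responses, 3 of 20 tested genes rose and 7 fell, with a median of 0.04. With a common sum 11 rose and 7 fell, after upper-quartile scaling or quantile normalization 6 and 7, and with 12 libraries 0 and 7, so no direction is given for the list. Among its members Asns, asparagine synthetase, read 371, 267, 439 and 427 FPKM in ESC and 43.6, 37.2, 48.5 and 87 in cXENp1, -2.83 ± 0.18 on the log2 scale (SE, 4 pairs, limma adjusted p = 4.8e-05). Chac1 (-3.41 ± 0.32), Trib3 (-2.72 ± 0.38), Slc7a5 (-1.84 ± 0.19) and their activator Atf4 (-1.40 ± 0.22) fell. Atf3, a stress-induced transcription factor, rose from 1.81 to 6.3 FPKM in ESC to 8.7 to 33 in cXENp1 (2.14 ± 0.18), and the chaperones Calr and Hsp90b1 did not pass (0.39 ± 0.17 and 0.04 ± 0.20). Hsp90b1 was called higher with a common sum (0.58).

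Glycolysis genes fell in 16 of 24 cases with no rise, median -1.16, but the median in 2.6Null was -0.22. Pfkp, platelet-type phosphofructokinase, read 99.7, 93.9, 87.2 and 39.5 FPKM in ESC and 1.97, 2.46, 3.73 and 5.48 in cXENp1, -4.18 ± 0.37 on the log2 scale (SE, 4 pairs, limma adjusted p = 0.00015). Aldoa, aldolase, read 2409, 2423, 2034 and 831 FPKM in ESC and 252, 336, 442 and 692 in cXENp1, -2.14 ± 0.43 on the log2 scale (SE, 4 pairs, limma adjusted p = 0.0055). The 2.6Null ESC library was the lowest ESC library for both, and for Pgk1 its 2 stages were nearly equal (-0.01 against -2.21 to -1.87 in the other lines). Glucose transporters Slc2a1 and Slc2a3 did not pass (0.16 ± 0.29 and -1.01 ± 0.39). Without 2.6Null, Slc2a3 was called lower (-1.54) and the list had 21 of 24 falls. Respiratory chain genes fell in 62 of 78 cases with no rise and a median of -0.79. Cox8a, a cytochrome oxidase subunit, read 1123, 1123, 1016 and 919 FPKM in ESC and 319.6, 344, 347 and 439.7 in cXENp1, -1.53 ± 0.17 on the log2 scale (SE, 4 pairs, limma adjusted p = 0.00044). Among DNA replication genes 24 of 33 fell and none rose, for example the licensing factor Cdt1 (-1.51 ± 0.20) and the helicase subunit Mcm3 (-1.21 ± 0.15), and in the TCA cycle 13 of 25 fell, with Sdhb at -1.09 ± 0.15. Ribosomal protein genes, a list added after their values were seen, fell in 72 of 79 cases, with a median of -0.80 and levels that near-identical copies make uncertain; their sum was 195510 to 268380 FPKM in ESC and 97155 to 134720 in cXENp1.

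The counts of small falls among abundant genes depend on the scaling and on the prefix term. After rescaling to a common sum, 25 of 78 respiratory chain genes, 31 of 79 ribosomal protein genes, 5 of 33 replication genes and 4 of 25 TCA genes were called lower, against 2, 0, 2 and 3 called higher in the same order, and the TCA median was 0.01. After quantile normalization the counts lower were 34, 8, 17 and 10, and 4 ribosomal protein genes and 3 TCA genes were called higher. Of 24 glycolysis genes, 13 were called lower and 3 higher with a common sum, and 12 lower and 1 higher after quantile normalization. Of 18 pluripotency factors, 16 were called lower and none higher with a common sum. With 12 libraries in the fit, 4 of 33 replication genes and 34 of 79 ribosomal protein genes were called lower. Changes also followed transcript length: among the 3000 genes with the shortest transcripts (median 678 bases) the median log2 change was -0.18 and among the 3000 with the longest (median 3229 bases) 0.19, out of 12000 tested genes (94.3%) with a length in GENCODE vM21. The median length was 632 bases for ribosomal protein genes and 596 for respiratory chain genes, and the part of length in their change was not tested.

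**Figure D5:**
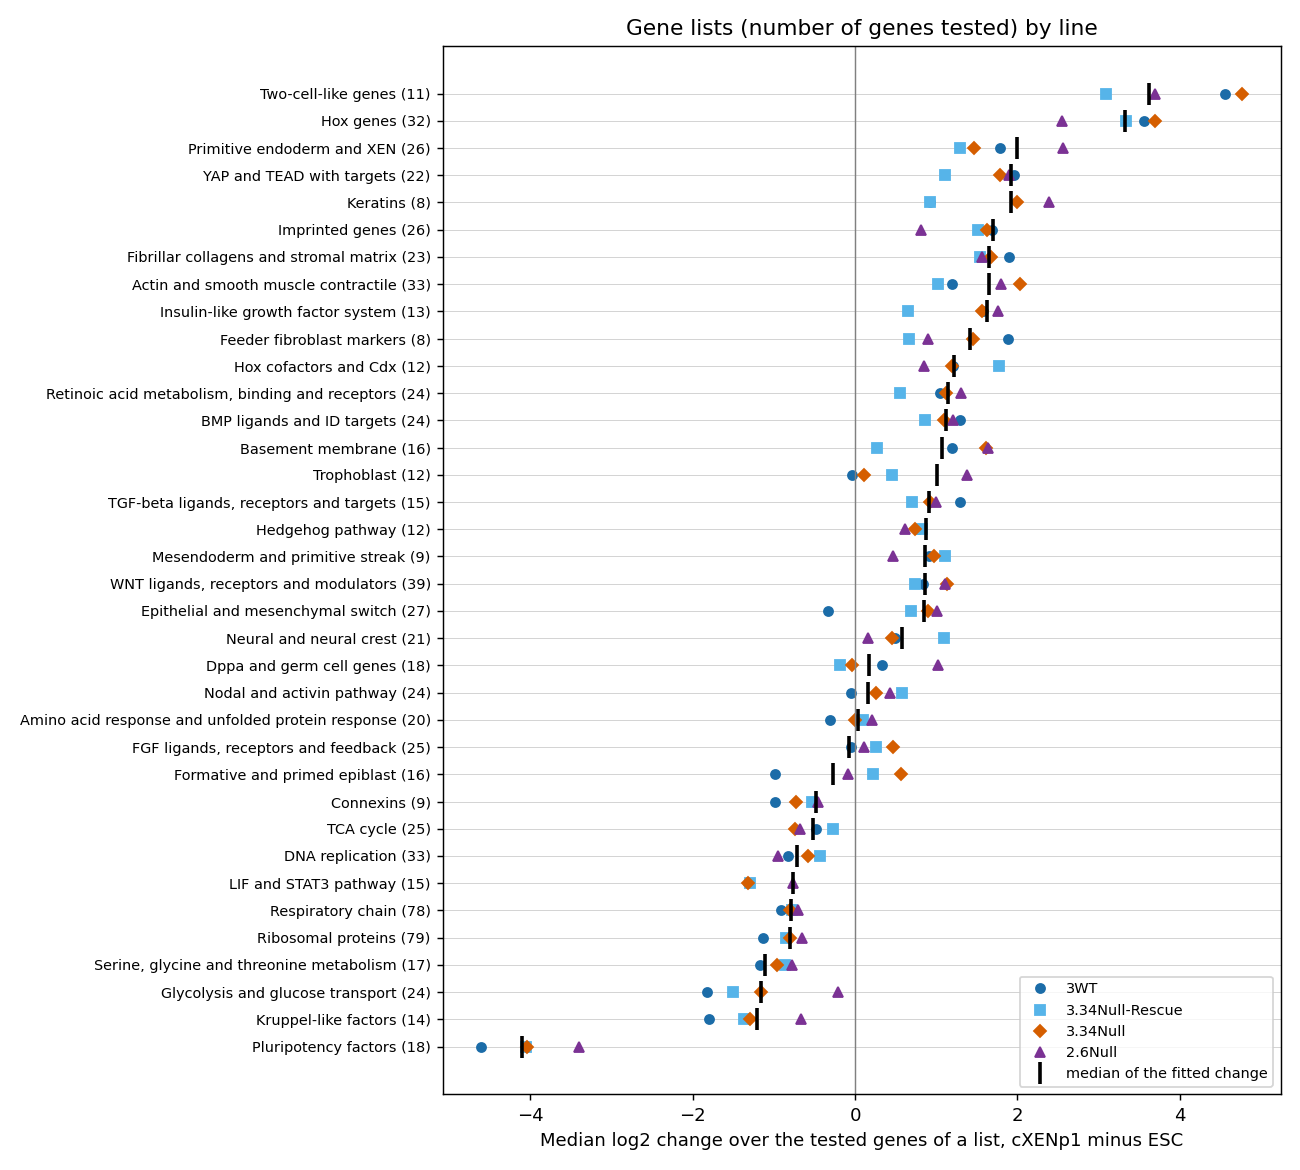
Median log2 change from ESC to cXENp1 over the tested genes of each of 36 gene lists, with 1 symbol per line and a black bar for the median of the fitted change; the number of genes tested is in brackets. Two-cell-like and Hox genes lie highest by the fitted median, pluripotency factors lie lowest in all 4 lines, and 2.6Null departs from the others for glycolysis (-0.22) and imprinted genes (0.82).

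Other families are given by their counts. Of homeobox factors of the Iroquois, Lim and other classes 15 of 22 rose and 1 fell, of claudins 7 of 11 and 1, of cadherins and protocadherins 7 of 9 and 0, of ephrins and Eph receptors 9 of 16 and 1, of semaphorins, plexins and neuropilins 12 of 25 and 3, of Sox factors 8 of 16 and 3 and of GATA factors 4 of 6 and 1. Against 22.9% of all tested genes in each direction, the shares of several of the next families lie near the background, and no direction is read from them. Cyclins, CDKs and inhibitors (9 higher and 14 lower of 31), Polycomb genes (5 and 10 of 24), cholesterol synthesis (3 and 8 of 23), the Notch pathway (3 and 5 of 16), heat shock proteins (1 and 4 of 16), forkhead factors (11 and 7 of 27), nuclear receptors (6 and 6 of 19), DNA methylation and TET genes (3 and 4 of 14), lysosomal genes (7 and 8 of 41), p53 targets (5 and 2 of 22), integrins (3 and 2 of 14), S100 proteins and annexins (4 and 2 of 15), T-box factors (2 and 2 of 6), PDGF genes (4 and 3 of 10), Ifitm and class I genes (4 and 3 of 12), Lin28 axis genes (4 and 2 of 8), visceral endoderm secreted proteins (4 and 3 of 14) and aquaporins (0 and 1 of 5) made up the rest, the first number in brackets being rises and the second falls.

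Whether the response differed between the lines without and with Zfp281 was tested as an interaction over the same 8 libraries, 2 lines against 2. limma called 2 of 12724 genes (0.0157%), Plac8 and Snora21, and 2136 had an unadjusted p under 0.05. Plac8, a small cysteine-rich protein of placenta, read 12, 29.3, 0.802 and 2.28 FPKM in ESC and 4.45, 14.9, 10.3 and 16.9 in cXENp1: it was lower at cXENp1 in both lines with Zfp281 and higher in both without (limma adjusted p = 0.039). Plac8 was not called with a pseudocount of 0.1, after quantile normalization, with a common sum, or with 12 libraries and no replicate block. Snora21, a small nucleolar RNA, is listed at 0 in 6 of the 8 libraries. The count depended on which line was left out, but each such fit leaves 1 line in an arm, so no result is read from those counts. Without 3.34Null, the arm without Zfp281 is 2.6Null, the only pair with a shared prefix, so Zfp281 and prefix cannot be told apart. The test over all 8 libraries holds that pair too, and the part of the prefix in it was not tested. For Cdh1, Cldn4 and Cldn7 the difference (lines without minus lines with Zfp281) was 2.00, 2.12 and 3.51 on the log2 scale, with limma adjusted p of 0.15, 0.15 and 0.18, none past the threshold. The rises of Cyp26a1, Rarb and the Hox genes and the fall of Tdgf1 were present in lines with and without Zfp281, and the test called no difference for them.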

How the data were processed

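Poly(A) RNA-seq (paired-end, 150-base reads) was compared in the 4 ESC and 4 cXENp1 libraries, per the labels' protocols. The submitters' processing notes name STAR 2.5.3, Cufflinks 2.1.1 and mm9, with no roles; annotation and strand use are not given in the sources used here. The authors deposited FPKM per locus (23174 loci), so depth per library is unknown and no counting interval can be given. Loci that share coordinates, antisense partners and near-identical copies can share reads.

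From these values, log2(FPKM + 1) was fitted with limma 3.58.1 in R 4.3.3 (eBayes with trend, line as a block, 3 residual degrees of freedom) on the 12724 loci with at least 2 of 8 libraries at 1 FPKM or more, with Benjamini-Hochberg adjustment and a threshold of 0.05. Fold changes on this scale understate the change of low genes. Libraries were paired because both stages of a pair carry the same line name. On simulated data for cXENp1 against ESC (11868 genes), 41 of 100 genes changed by log2 1 and 85 of 100 changed by log2 2 were recovered, and 5 unchanged genes were called. Only these genes were changed, all with a mean of at least 5 FPKM, with normal noise and no shift by prefix or scaling. In the real comparison 45.9% of genes were called, so these rates do not carry over to it.

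Genes are named by rule: Zfp281, Cyp26a1, Tdgf1, the 15 largest rises and falls with the same sign in 4 lines, and per described list up to 8 called members with the largest changes and up to 4 members that were not called with the highest means. Plac8, Snora21, Ppbp, Blvrb, Syndig1 and Hsp90ab1 fall outside it and were picked with their values in view. Lineage markers under 1 FPKM, and some others such as Eomes, Gsc and Tubb3, come from the marker lists. Members and lists were chosen with earlier results of these data known. Alternatives were other scalings, pseudocounts, filters, a prefix term, no block, 12 libraries and each line left out; the common-sum scaling was chosen after seeing the data. Promoters are RefSeq windows (GRCm38.p6), figures used matplotlib 3.10.9, and a few genes are not reported here.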

Additional observations from a re-analysis of the deposited data

Results flagged for a closer look

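Changes were compared among the 4 lines for 382 named genes. In 21 of them, 1 line lay apart from the other 3 by Dixon's criterion. Chance alone flags about 1 in 20 groups, which is near this count, so no single gene is read as a result. The line was 2.6Null in 12, 3.34Null in 5, 3.34Null-Rescue in 2 and 3WT in 2. 2.6Null is also the only line whose stages share a description prefix, so line and prefix cannot be told apart there.

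The log2 change of 2.6Null stood apart for Meis2 (3.93), Meis1 (2.65), Gbx2 (-1.80), Rara (0.87), Sdc1 (0.12), Timp2 (3.75), Krt42 (-4.61), Krt17 (-4.49), Pgk1 (-0.014), Sdhd (-0.25), Cox6c (-0.95) and Slc38a4 (1.54). In 3.34Null it stood apart for Zfp281 (-1.10), Rarb (3.79), Dhh (-0.13), Amotl2 (3.81) and Shmt2 (-0.97). In 3.34Null-Rescue it did so for Taf7l (1.98) and Cs (0.36), and in 3WT for Meis3 (1.49) and Ddit3 (-1.69).

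The direction of the change was opposite in the 2 lines without and the 2 lines with Zfp281 for 17 of the 382 named genes. None of them was called by limma in the test of that difference (adjusted p from 0.072 for Pim1 to 0.45 for Ncor1). The share of such genes over all tested genes was not computed, so the count is not read as a pattern. The difference, without minus with Zfp281, was positive on the log2 scale for Cldn7 (3.51), Pim1 (2.26), Cldn4 (2.12), Cdh1 (2.00), Hoxc12 (1.85), Hoxc13 (1.82), Fbln1 (1.77), Junb (1.62), Amn (1.58), Tex19.1 (1.25), Spred2 (1.23), Actn1 (1.13), Lamb3 (0.86) and Lrp5 (0.85). It was negative for Ncam1 (-2.33), Wwtr1 (-1.09) and Ncor1 (-0.48). Limma called the difference for Plac8 (3.64, adjusted p = 0.039) and for Snora21 (6.98), which is listed at 0 in 6 libraries. The call of Plac8 was lost under several other settings.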

How the results depend on the processing

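The count of 5834 genes called between the stages became 5242 without the replicate block of lines (5076 of them shared with the paired fit), 3760 with all 12 libraries of the course, 2221 when the description prefix entered the fit and 2836 with a minimum log2 change of 1. Leaving out 1 line gave 3806 (without 3WT) to 6092 (without 2.6Null). The count of 2 for the difference between lines without and with Zfp281 became 1 with a pseudocount of 0.1, after quantile normalization or with a common sum, 5 with 12 libraries and no replicate block, and 1 to 1362 leaving out 1 line. Each fit of that difference with 1 line left out has 1 line in an arm, so no result is read from its count. The largest of these counts came without 3.34Null, where the arm without Zfp281 is 2.6Null alone. That is the only pair with a shared prefix, so Zfp281 and prefix cannot be told apart there. The cause of the shifts in these counts was not tested. Of 276 named genes called, 175 kept direction and call under every alternative that could be fitted and 275 kept direction; the prefix term ended the call of 81, and removing the block ended that of 9. Reversed values were -1.80 for Gbx2 with the prefix term, 0.54 for Rpl41 after quantile normalization, and 0.032 for Gjc1, 0.44 for Mat2a and 0.45 for Gcsh with a common sum. Depth is unknown, so it sets no limit that can be stated; with 1 library per line and stage, small changes rest on 4 pairs.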
